A study of Mus musculus with 4 samples.

Results

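The genes described here are those of the immunoproteasome and of the constitutive proteasome subunits that it replaces. They are 8 of the 30905 genes of the count matrix and were taken by symbol, with earlier results of these data known. The induced catalytic subunits *Psmb8*, *Psmb9* and *Psmb10*, the activator subunits *Psme1* and *Psme2*, and the constitutive subunits *Psmb5*, *Psmb6* and *Psmb7* were all found. The cells came from 4 mouse hearts that had been transplanted into the abdomen of C57BL/6J recipients, all young adult males, and were collected on day 5. In the 2 allogeneic grafts the donor heart was of the Balb/C strain, and in the 2 syngeneic grafts it was C57BL/6J, the strain of the recipient. A graft holds cells of the donor together with recipient cells that entered it. Single-cell 3′ libraries were made, in which each RNA molecule is marked by a unique molecular identifier (UMI), and the values are counts of UMIs per gene and cell.

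All cells stand in a single merged matrix of 53824 barcodes. The barcodes carry the suffixes 1 to 4, and no label or file read here pairs a suffix with a graft. The cells of each suffix are called libraries 1 to 4, the matrix was treated as 1 pooled sample, and allogeneic grafts were not compared with syngeneic grafts. The libraries are therefore given side by side, without a test between them, and the intervals given cover counting error only.

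The proteasome is a barrel-shaped protease that degrades ubiquitin-tagged proteins, and the catalytic sites lie in its inner beta rings. Interferon gamma induces substitute catalytic subunits that are built into newly assembled particles in place of the constitutive ones, and the resulting immunoproteasome yields more peptides of the kind that MHC class I molecules present to CD8 T cells. In the heart, the constitutive form prevails in muscle cells, whereas cells of the immune system carry much of the induced form.

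*Psmb8* (LMP7) takes the place of *Psmb5*, the subunit that cuts after hydrophobic residues. *Psmb9* (LMP2) replaces *Psmb6*, which cuts after acidic residues, and *Psmb10* (MECL-1) replaces *Psmb7*, which cuts after basic residues. *Psme1* and *Psme2* form the ring called PA28, a cap that opens the barrel. In the mouse genome GRCm38, *Psmb9* (chr17:34181987-34187764, minus strand) and *Psmb8* (chr17:34197721-34201454, plus strand) lie in the MHC region on both sides of *Tap1*, which encodes a subunit of the peptide transporter. *Tap1* starts 212 bases inside *Psmb9*, on the opposite strand, and ends 496 bases before *Psmb8*. *Psme1* (chr14:55578123-55581529, plus strand) and *Psme2* (chr14:55587441-55591113, minus strand) are 5912 bases apart. *Psmb5* (chr14:54614119-54618022, minus strand) is on the same chromosome, and the others are *Psmb10* (chr8:105935735-105938444, minus strand), *Psmb6* (chr11:70525367-70527858, plus strand) and *Psmb7* (chr2:38588036-38644087, minus strand).

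Promoter sequences of RefSeq (GRCm38.p6) were found for 7 of the 8 genes, all but *Psmb7*, as windows of the 250 bases before the start. Both strands were searched for the gamma-activated site TTCNNNGAA, the core of the interferon-stimulated response element (GAAA, any 2 bases, GAAA) and the core of the antioxidant response element TGACNNNGC, and no matches overlapped. The stretches that hold a match are shown because the levels of induced and constitutive genes went apart between libraries. Only *Psmb8* among the induced genes held a gamma-activated site, which 7.02% of all 32851 promoters of that length hold. *Psmb5* and *Psmb6* each held the antioxidant core, which 10.2% of promoters hold, and no window held the interferon-stimulated core, which 2.98% of promoters hold. These matches describe letters and not binding. The stretches below are written 5′ to 3′ on the gene's strand, with the match in capitals. The *Psmb8* stretch (chr17:34198088-34198116, plus strand) is limited to the match and 10 bases on each side, since its window lies in annotated exons. The *Psmb5* stretch (chr14:54618023-54618245, minus strand) and the *Psmb6* stretch (chr11:70525107-70525356, plus strand) lie outside annotated exons.
Psmb8: tcctccgctgTTCCCAGAAgatgcccccc
Psmb5: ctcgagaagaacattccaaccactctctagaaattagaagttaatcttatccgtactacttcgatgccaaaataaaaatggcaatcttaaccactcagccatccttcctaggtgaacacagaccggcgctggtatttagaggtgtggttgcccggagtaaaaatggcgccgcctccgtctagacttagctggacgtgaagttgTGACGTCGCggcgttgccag
Psmb6: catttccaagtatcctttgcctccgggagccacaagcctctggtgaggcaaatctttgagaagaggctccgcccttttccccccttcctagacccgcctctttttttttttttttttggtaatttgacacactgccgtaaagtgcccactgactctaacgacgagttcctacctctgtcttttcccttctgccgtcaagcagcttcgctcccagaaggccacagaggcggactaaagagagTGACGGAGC

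Filters on detected genes (over 200) and mitochondrial share (under 20%) left 44626 cells, and 42395 after removal of those most like simulated doublets. The libraries held 13112 to 13907 barcodes and 96020294 to 166079145 UMIs each, with a median of 4759 to 9784 UMIs per barcode, the highest in library 4. Of the 53516 distinct barcode sequences, 308 occurred in more than 1 library. The cells formed 28 clusters, made without the 8 genes and the other listed proteasome, class I loading and interferon genes, and 24 clusters were named by their markers as 11 classes. The other 4 clusters, with 4440 cells, stayed unnamed. Library 4 held only 5 of the 15373 endothelial-like cells, whereas 1588 of the 1612 cells of unnamed cluster 13, led by *Ubd*, *Gbp2b* and *Cxcl9*, were in library 4 and had *Cdh5*, an endothelial cadherin, at 679 CPM, that is, 679 UMIs in a sum of 1000000 non-mitochondrial UMIs of the same cells. Several classes were made of different clusters in different libraries. Cluster 7 held 79.6% of the fibroblast-like cells of library 1, cluster 19 held 96.9% in library 2, cluster 9 held 80.4% in library 3 and cluster 22 held 98.2% in library 4. Clusters 7 and 9 had 10 fibroblast markers, cluster 22 had 7 and cluster 19 had 5. *Col1a1*, *Col1a2*, *Col3a1*, *Lum* and *Bgn* were not among the markers of cluster 19, which was led by *Prg4*, *Cxcl5* and *Ptx3*. Endothelial-like cells were mostly in clusters 1, 3 and 2 in libraries 1, 2 and 3. Macrophage-like cells were mostly in cluster 12 in libraries 1 to 3 and in cluster 4 in library 4, and granulocyte-like cells mostly in cluster 16 in libraries 1 and 3, cluster 8 in library 2 and cluster 20 in library 4. Pericyte-like cells also had *Cdh5*, at 698 to 893 CPM against 1091 to 1383 CPM in endothelial-like cells.

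A level is given as CPM for each library with at least 50 cells of the class. The counts are of 3′ ends and carry no length scaling, so levels are compared between cells and not between genes.

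*Psmb8* was highest in dendritic-like, macrophage-like and granulocyte-like cells of library 4 and, outside erythroid-like cells, lowest in fibroblast-like and smooth muscle-like cells of library 2. In macrophage-like cells it was at 354 CPM in library 1, 121 CPM in library 2, 296 CPM in library 3 and 1947 CPM in library 4. In granulocyte-like cells the levels were 189, 45.1, 207 and 1644 CPM, and in fibroblast-like cells 122, 17.0, 64.2 and 1015 CPM. All 3 classes were thus lowest in library 2 and highest in library 4 by a wide margin. Dendritic-like cells, the antigen-presenting specialists of the tissue, already had 1060.3 CPM in library 1 and 960.3 CPM in library 3, and 2418 CPM in library 4. T/NK-like cells were at 588, 214, 611 and 877 CPM and B-like cells at 314 and 838 CPM in libraries 3 and 4. Endothelial-like cells were at 402, 138 and 270.3 CPM in libraries 1 to 3, and pericyte-like cells at 276, 92.6 and 201 CPM. Smooth muscle-like cells were at 57.7, 20.2 and 43.8 CPM, and the cardiomyocyte-like cells of library 1 were at 29.9 CPM (95% Poisson interval 21.0 to 41.2). The contractile cells were thus below every other class but the erythroid-like cells in libraries 1 and 3.

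*Psmb9*, the neighbour of *Tap1*, had the widest range of the 8 genes, from 2.27 CPM in fibroblast-like cells of library 2 to 1219 CPM in dendritic-like cells of library 4. The low value rests on 47 UMIs among 20674593 and has an interval of 1.67 to 3.02 CPM. Fibroblast-like cells had 45.6 CPM in library 1, 26.0 CPM in library 3 and 551 CPM in library 4. Macrophage-like cells had 135, 19.5, 118 and 787 CPM in libraries 1 to 4, and granulocyte-like cells 104, 14.9, 102 and 964 CPM. In these 3 classes libraries 1 and 3 lay between library 2 below and library 4 above. Endothelial-like cells had 180 CPM in library 1, 30.6 CPM in library 2 and 136 CPM in library 3, and T/NK-like cells 239, 55.7, 215 and 365 CPM. Dendritic-like cells had 445 CPM and 440.2 CPM in libraries 1 and 3, which did not differ beyond counting error. Smooth muscle-like cells stayed at 25.5, 3.72 and 23.7 CPM in libraries 1 to 3.

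*Psmb10* differed less between classes. Macrophage-like cells of library 4 had the highest level, 855 CPM, against 143, 91.4 and 126 CPM in libraries 1 to 3. Granulocyte-like cells went from 17.6 CPM in library 2 through 28.3 CPM in library 1 and 85.7 CPM in library 3 to 646 CPM in library 4. Dendritic-like cells, which led for *Psmb8* and *Psmb9*, had 148 CPM in library 1 and 123 CPM in library 3, below the 218 and 163 CPM of endothelial-like cells in the same libraries. Their level was 440.1 CPM in library 4. Cardiomyocyte-like cells of library 1 had 114 CPM, close to the 109 CPM of fibroblast-like cells, while their *Psmb8* and *Psmb9* levels were lower than those of fibroblast-like cells. An antisense gene, *Gm16156*, spans all of *Psmb10*, and the counting sources used here do not give the treatment of antisense reads. Genes on the opposite strand overlap other members too, such as *Gm20496* with *Psmb8* (2139 bases) and *Nek6* with *Psmb7* (6571 bases).

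The PA28 subunits were likewise highest in library 4, with a narrower range. *Psme1* was at 261, 129.5 and 250.3 CPM in macrophage-like cells of libraries 1 to 3 and 1029 CPM in library 4. *Psme2* was at 173, 122, 166 and 1262 CPM in the same cells. In granulocyte-like cells *Psme2* reached 1235 CPM in library 4 against 62.7 to 158 CPM in the others. In smooth muscle-like cells *Psme2* hardly differed between libraries, with 105, 102 and 104 CPM, and *Psme1* was at 137, 103 and 108 CPM. Outside erythroid-like cells the lowest levels of *Psme1* and *Psme2* over all classes and libraries were 61.5 and 62.7 CPM, both in granulocyte-like cells of library 2, so that both were detected in every class. *Psme2* shares 21.5% of the stretches of 91 bases near its 3′ end with its retrocopy *Psme2b*, so its counts are less certain. *Psme2b* itself had 7481 UMIs against 186999 for *Psme2*.

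The constitutive subunits varied far less. Without erythroid-like cells, the highest *Psmb5* level was 4.28 times the lowest over 31 combinations of class and library, and the ratio was 5.98 for *Psmb6* and 4.91 for *Psmb7*. The same ratio was 142 for *Psmb8*, 536 for *Psmb9*, 48.7 for *Psmb10*, 23.5 for *Psme1* and 22.1 for *Psme2*. *Psmb5* was at 117, 356, 148 and 246 CPM in fibroblast-like cells of libraries 1 to 4, at 119.7, 215 and 149.7 CPM in endothelial-like cells and at 169, 295 and 204 CPM in smooth muscle-like cells. In these cells library 2, the lowest for *Psmb8* and *Psmb9*, was the highest for *Psmb5*. Over the 7 classes with at least 50 cells in each of libraries 1 to 3, *Psmb5*, *Psmb6* and *Psmb7* were each highest in library 2 in 5 classes. In the same 7 classes *Psmb8*, *Psmb9*, *Psmb10* and *Psme1* were each lowest in library 2 in all 7, and *Psme2* in 6. The interval of the lowest library was apart from the others in 7 classes for *Psmb8* and *Psmb9*, 6 for *Psmb10* and *Psme1*, and 4 for *Psme2*. The share of all genes that were highest or lowest in library 2 was not counted. *Psmb5* shares 36.1% of its stretches of 91 bases near the 3′ end with the pseudogene *Gm3375*, which makes its counts less certain.

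**Figure D1:**
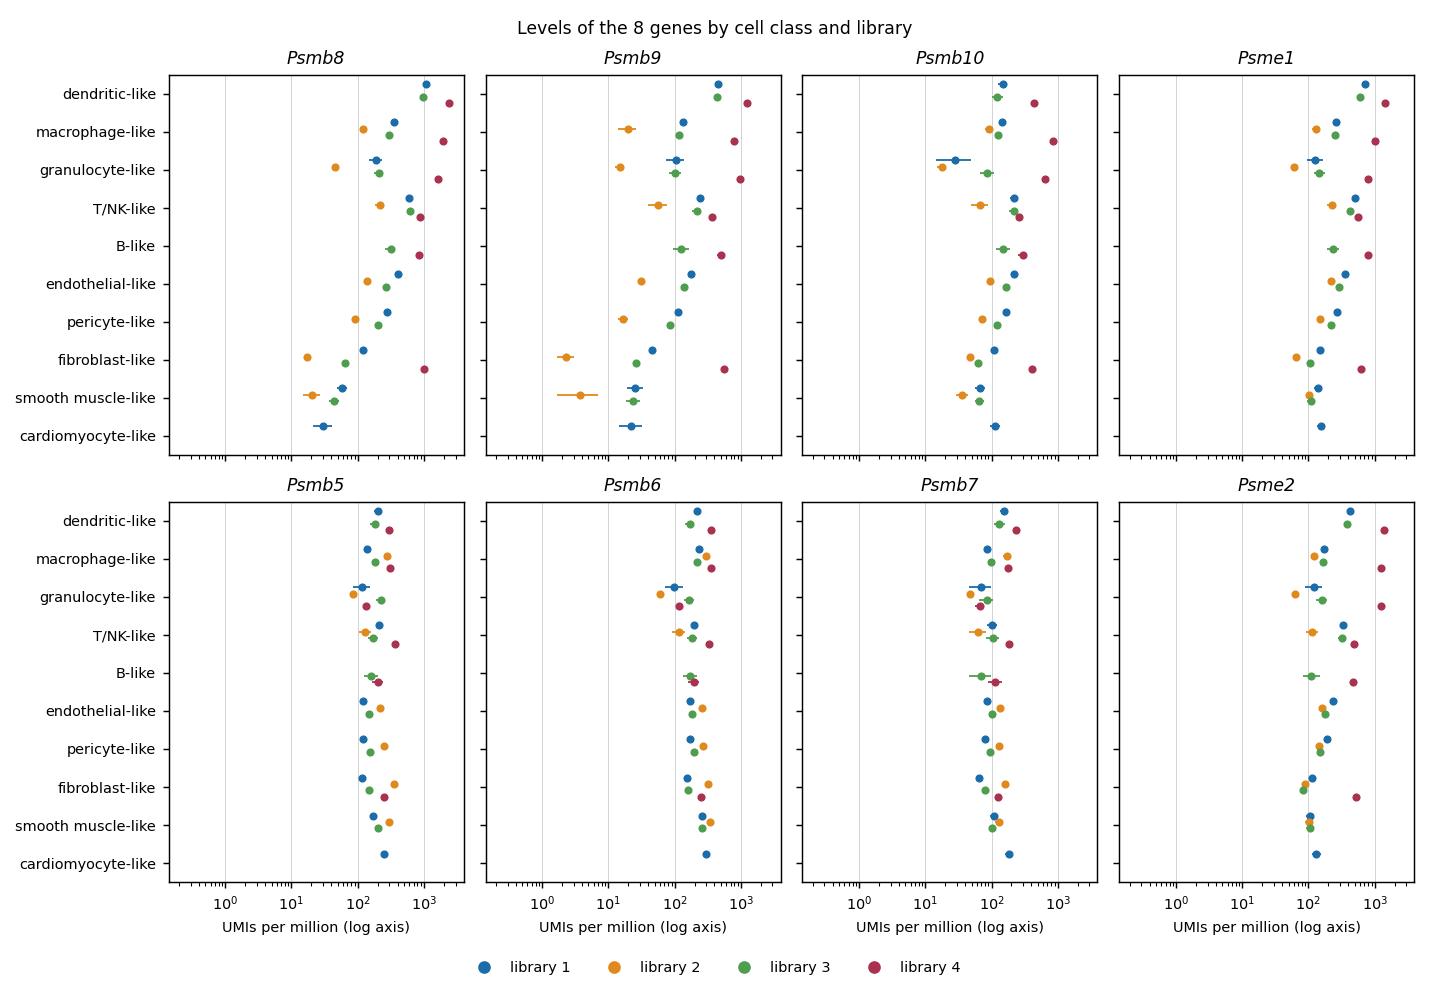
Levels of the 8 genes by cell class (rows) and library (colours), in CPM on a logarithmic axis. Bars are exact Poisson 95% intervals and cover counting error only. The induced genes *Psmb8*, *Psmb9* and *Psmb10* spread widely between libraries, with library 4 highest in each class it shares, and *Psmb5*, *Psmb6* and *Psmb7* stay within a narrow band. Erythroid-like cells are left out.

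Erythroid-like cells of library 1, in which hemoglobin transcripts made up 91.7% of UMIs, had between 2.85 CPM (*Psmb9*) and 12.8 CPM (*Psmb6*) of the 8 genes, on 195 cells. Of all erythroid-like cells, whose depth had a median of 7115 UMIs, 6.91% had a UMI of *Psmb8*. The share was 95.9% in macrophage-like cells (median 14221 UMIs) and 11.1% in cardiomyocyte-like cells (median 2730 UMIs). With cells thinned to 1000 UMIs, which leaves out 6 erythroid-like, 78 macrophage-like and 1 cardiomyocyte-like cells, the shares were 1.42%, 69.6% and 3.96%. *Psmb5* was found in 22.5% of the thinned macrophage-like cells, 24.0% of the cardiomyocyte-like cells and 0 of 211 erythroid-like cells, which allows a share of up to 1.42%. The low *Psmb8* share of the cardiomyocyte-like cells thus stood beside a *Psmb5* share as high as that of macrophages. These shares pool the libraries. Of the 7555 macrophage-like cells 5904 were in library 4, and of the 380 cardiomyocyte-like cells 330 were in library 1, so the contrast is also one of libraries. Within library 1 *Psmb8* was at 354 CPM in macrophage-like and 29.9 CPM in cardiomyocyte-like cells. Cardiomyocyte-like cells were above erythroid-like cells for all 8 genes, and the part of free RNA in their low *Psmb8* and *Psmb9* levels was not tested.

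The induced share is the percentage of a pair's UMIs that came from the induced gene, over the same cells. It does not depend on the CPM denominator, but the transcripts of a pair may be captured unequally, so shares are compared between cells and not between pairs. Deep cells weigh more in it, and with cells thinned to 1000 UMIs the pooled T/NK-like share was 68.1% in place of 63.2%. Over all cells the induced share of the 3 pairs together was 58.4% in library 1, 22.8% in library 2, 47.5% in library 3 and 78.9% in library 4.

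Among the classes, dendritic-like cells kept a high induced share wherever they were measured. Their share over the 3 pairs was 74.1% in library 1 (95% Clopper-Pearson interval 72.3 to 75.8), 76.0% in library 3 (73.9 to 77.9) and 82.2% in library 4 (81.3 to 83.1). Macrophage-like cells had 58.3%, 23.7%, 51.6% and 81.0% in libraries 1 to 4. Granulocyte-like cells had 53.1%, 28.8%, 45.7% and 91.1%, the highest share of any class and library. It was not the highest induced level. In library 4 their induced subunits summed to 3253 CPM, against 3589 CPM in macrophage-like and 4077 CPM in dendritic-like cells. Their constitutive subunits summed to 317 CPM, against 841 and 882 CPM. Myeloid cells thus spanned most of the scale, and the dendritic-like cells only its upper end. Dendritic-like cells of library 2 were under 50 and were not measured.

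Among the vessel and stromal cells, endothelial-like cells had the highest induced shares, 68.0%, 30.1% and 56.9% in libraries 1 to 3. Pericyte-like cells had 59.8%, 21.9% and 47.7%, with the intervals apart from those of endothelial-like cells in each library. Fibroblast-like cells had 45.2%, 7.44%, 28.0% and 76.0% in libraries 1 to 4, the widest span of any class. Those of library 2 were mostly cluster 19, which had 5 fibroblast markers and no collagen gene among them, so the span also sets different clusters against each other. Smooth muscle-like cells had 21.9% in library 1, 7.28% in library 2 and a share with an interval of 17.4% to 20.8% in library 3, and cardiomyocyte-like cells 18.5% in library 1. In library 2, fibroblast-like and smooth muscle-like cells did not differ beyond counting error, and in library 1 neither did smooth muscle-like and cardiomyocyte-like cells. Erythroid-like cells had 49.2%, with an interval of 35.9 to 62.5 on few UMIs.

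T/NK-like cells departed from this order of libraries. Their induced share was 67.2% in library 1, 52.2% in library 2, 69.5% in library 3 and 63.0% in library 4. They had the highest share of the named classes in library 2 and the lowest in library 4, where all 8 genes were nonetheless at their highest T/NK-like level. Of 163 T/NK-like cells of library 2, 157 fell into a subcluster led by *Fabp4*, *S100a8*, *S100a9* and *Cd36*, genes of endothelial cells and granulocytes. In them the leukocyte gene *Ptprc* was at 453 CPM against 831 to 1183 CPM in the other libraries, *Cdh5* at 151 CPM against 5.53 to 72.0 CPM, and the granulocyte transcripts summed to 2115 CPM against 22.5 to 52.2 CPM. Their part in the library 2 value was not tested. In libraries 1 and 3, 88 of 174 and 59 of 121 T/NK-like cells fell into another unnamed subcluster. It was led by hemoglobin genes, with the heart muscle genes *Mb* and *Myl2* also among its leading genes. The part of these transcripts in the values of libraries 1 and 3 was not tested either. B-like cells had 59.5% in library 3 and 76.3% in library 4.

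**Figure D2:**
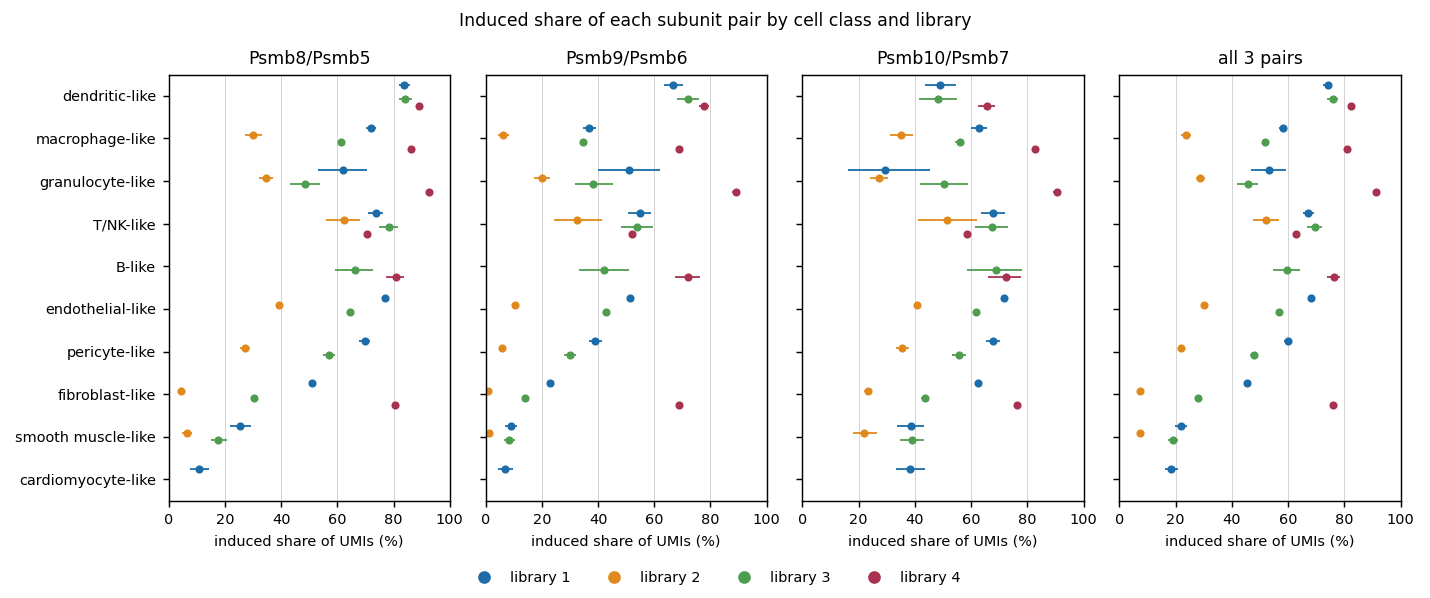
Induced share of each subunit pair and of the 3 pairs together, in percent of UMIs, by cell class (rows) and library (colours). Bars are exact Clopper-Pearson 95% intervals. Fibroblast-like cells span 7.44% to 76.0% over the 3 pairs, T/NK-like cells 52.2% to 69.5%, and library 2 lies lowest in each class measured in it.

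Each pair was also followed across the cells. The *Psmb9*/*Psmb6* share ran from 0.704% in fibroblast-like cells of library 2 to 89.1% in granulocyte-like cells of library 4. The *Psmb8*/*Psmb5* share ran from 4.55% to 92.5% in the same cells. The *Psmb10*/*Psmb7* share ran from 22.1% in smooth muscle-like cells of library 2 to 90.7% in granulocyte-like cells of library 4. In library 1 the *Psmb10*/*Psmb7* share was 38.4% in cardiomyocyte-like and 49.0% in dendritic-like cells. The *Psmb8*/*Psmb5* share was 10.6% and 83.9% in the same cells, and the *Psmb9*/*Psmb6* share 6.82% and 66.8%. Dendritic-like cells were thus the higher of the 2 on each pair.

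Library 4 stood apart. Over the 6 classes measured in library 4 and elsewhere, all 5 induced genes were higher in library 4 than in any other library, with intervals apart, in all 6. *Psmb5*, *Psmb6* and *Psmb7* were each higher in 4 of the 6, with intervals apart in 2 or 3. The share of all genes that were highest in library 4 by this rule was not counted. The induced share of the 3 pairs was higher in 5 of the 6, the exception being T/NK-like cells. Without library 4, the share over libraries 1 to 3 was 26.5% in place of 46.4% in pooled fibroblast-like cells and 50.8% in place of 79.3% in pooled macrophage-like cells, most of which came from library 4. The summed level of the interferon gamma list, 18 genes such as *Irf1* and the guanylate-binding proteins, moved with it. In macrophage-like cells the sum was 986, 411, 663 and 11435 CPM in libraries 1 to 4, and in fibroblast-like cells 1412, 133, 513 and 13205 CPM. *Ifng* itself, the interferon gamma gene, was at 1326 CPM in T/NK-like cells of library 4 and at 175 CPM in library 1 and 158 CPM in library 3. No UMI of *Ifng* was found in T/NK-like cells of library 2, which allows up to 4.07 CPM. Of these 163 cells, 157 were in the subcluster led by genes of endothelial cells and granulocytes, so their identity is uncertain. In endothelial-like cells the list summed to 5282, 562 and 2814 CPM in libraries 1 to 3, the same order as the induced share.

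The spread of each gene over the libraries was compared with that of all genes of the class with at least 50 CPM in some library. A gene was counted when its highest library was at least 2-fold its lowest, with 10 CPM added to both. In fibroblast-like cells all 5 induced genes were counted, against 50.5% of 4234 genes. Their median fold was 8.52 against 2.01 for all genes tested, with *Psmb9* at 45.7-fold and *Psme2* at 5.73-fold. The *Psmb9* fold sets library 4, mostly cluster 22, against library 2, mostly cluster 19, which lacked the collagen markers. In granulocyte-like cells all 5 were counted against 54.6% of genes, with a median of 23.8 against 2.10, and in macrophage-like cells all 5 against 36.1%, with a median of 9.64 against 1.70. So large a share of all genes passed the limit in these classes that the size of the fold says more than the count. All 5 were also counted in T/NK-like cells, against 43.8% of genes and with a median of 3.95 against 1.87, and in dendritic-like cells, against 19.5% and with a median of 2.73 against 1.44. These counts rested on single libraries. Without library 2 the 5 genes were at 1.18-fold to 1.67-fold in T/NK-like cells, and without library 4 at 1.01-fold to 1.19-fold in dendritic-like cells, so that 0 of 5 were counted in either. Without library 4, 2 of 5 were counted in macrophage-like cells, *Psmb8* and *Psmb9*, with a median of 1.94-fold, and 4 of 5 in fibroblast-like cells, with a median of 2.14-fold. In granulocyte-like cells all 5 were counted without any 1 of the libraries. The share of all genes counted with a library left out was not worked out, here or below.

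In endothelial-like cells 3 of 5 induced genes were counted, *Psmb8*, *Psmb9* and *Psmb10*, against 17.0% of genes, and the same 3 in pericyte-like cells, against 15.7%. The PA28 genes were below the limit there, with *Psme2* at 1.48-fold in endothelial-like cells and *Psme1* at 1.73-fold in pericyte-like cells. Endothelial-like, pericyte-like and smooth muscle-like cells were measured in libraries 1 to 3 only, so these folds leave out library 4. The PA28 genes summed to 375 to 593 CPM in endothelial-like cells of these libraries. In unnamed cluster 13 of library 4, which is not in the folds, they summed to 1737 CPM. In smooth muscle-like cells 1 of the 4 induced genes tested was counted, *Psmb8* at 2.24-fold, against 16.2% of genes, while *Psmb9* did not reach 50 CPM in any library. Without library 2, none of the induced genes was counted in these 3 vessel classes, and the highest fold was 1.47 in endothelial-like, 1.35 in pericyte-like and 1.26 in smooth muscle-like cells. Without library 1, only *Psmb9* was counted in endothelial-like cells, *Psmb8* and *Psmb9* in pericyte-like cells and none in smooth muscle-like cells. Of the constitutive subunits all 3 were counted in fibroblast-like cells, against 50.5% of genes, and in T/NK-like cells, against 43.8%. In granulocyte-like cells 2 were counted, against 54.6%, and 1 each in macrophage-like cells, against 36.1%, and dendritic-like cells, against 19.5%. None was counted in endothelial-like, pericyte-like and smooth muscle-like cells, against 17.0%, 15.7% and 16.2%. Without library 4 none was counted in T/NK-like, macrophage-like or dendritic-like cells, and without library 2 only *Psmb5* in T/NK-like and fibroblast-like cells and none in granulocyte-like cells. Without library 1, *Psmb5* alone was counted in fibroblast-like cells and none in macrophage-like cells, and without library 3 none in granulocyte-like or dendritic-like cells.

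The other proteasome genes had folds close to those of the constitutive members. The 7 genes of the alpha ring, *Psma1* to *Psma7*, had a median fold of 2.32 in fibroblast-like, 2.62 in macrophage-like and 1.52 in endothelial-like cells. Of them, 7, 7 and 0 of 7 were counted, against 50.5%, 36.1% and 17.0% of all genes. The noncatalytic beta subunits *Psmb1* to *Psmb4* had medians of 2.23, 2.07 and 1.48. Genes of the regulatory particle, the cap that binds ubiquitin chains, had medians of 2.20 in fibroblast-like and 1.93 in macrophage-like cells. In the 3 classes 15 of 19, 5 of 18 and 2 of 18 were counted, against 50.5%, 36.1% and 17.0% of all genes. *Pomp*, an assembly chaperone of the barrel, was at 2.61-fold in fibroblast-like and 2.71-fold in macrophage-like cells. In contrast, 9 of 11 class I loading genes were counted in fibroblast-like cells, against 50.5% of all genes. Their median was 10.6-fold, led by *Tap1* at 27.1-fold, with *Pdia3* lowest at 1.69-fold. In macrophage-like cells *Tap1* was at 17.5-fold and in granulocyte-like cells at 29.0-fold, and in each it was the highest of its list. The interferon gamma list had medians of 26.7-fold, 24.1-fold and 51.2-fold in fibroblast-like, macrophage-like and granulocyte-like cells, and the type I interferon list, such as *Irf7* and *Ifit3*, medians of 9.51, 8.36 and 27.8. The thymus subunit *Psmb11* had 27 UMIs in all cells.

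Each class was also set against the median of the other classes, pooled over libraries, at the same limit of 2-fold. In macrophage-like cells all 5 induced genes were higher, against 15.9% of 6617 genes, from 4.06-fold for *Psme1* to 6.51-fold for *Psmb8*. In dendritic-like cells 4 were higher, against 14.5%, with *Psmb9* at 6.66-fold and *Psmb8* at 6.38-fold and *Psmb10* short of the limit at 1.98-fold. T/NK-like cells had 4 higher, against 14.0%, and B-like cells 3, against 12.6%. No induced gene was 2-fold higher in endothelial-like cells, against 18.8%, in pericyte-like cells, against 22.7%, or in fibroblast-like cells, against 17.0%. None was 2-fold higher in granulocyte-like cells either, against 14.3%, nor in smooth muscle-like cells, against 19.7%, cardiomyocyte-like cells, against 16.5%, or erythroid-like cells, against 0.861%. Of the 3857 granulocyte-like cells, 2738 were in library 2, where all 5 induced genes were at their lowest granulocyte-like level. *Psmb8* and *Psmb9* were lower in smooth muscle-like cells, against 5.17% of genes, at 0.30-fold and 0.26-fold, and in cardiomyocyte-like cells, against 25.5%, at 0.20-fold and 0.28-fold.

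The pooled comparison mixes classes from different libraries, so it was repeated within each. The classes with at least 50 cells were 10, 7, 9 and 6 in libraries 1 to 4, against 11 pooled. Library 4 had no endothelial-like, pericyte-like, smooth muscle-like, cardiomyocyte-like or erythroid-like cells in this comparison. The medians thus rest on different classes, and folds are not strictly alike between libraries or with the pooled ones. Within library 1 macrophage-like cells had *Psmb8* at 1.83-fold the median of the other classes and *Psmb9* at 1.28-fold, within library 3 at 1.23-fold and 1.04-fold, and within library 4 at 1.91-fold and 1.42-fold. The macrophage-like excess of the pooled *Psmb8* and *Psmb9* values was thus much smaller within a library, against the classes measured there. In library 4 the macrophage-like *Psmb10* level was 855 CPM against 256 to 646 CPM in the other classes. Their *Psme2* level was 1262 CPM against 478 to 1385 CPM. Granulocyte-like cells of library 4 had *Psme2* at 1235 CPM, against 478, 483 and 529 CPM in B-like, T/NK-like and fibroblast-like cells. Macrophage-like and dendritic-like cells were higher. Dendritic-like cells had *Psmb8* at 5.39-fold, 3.90-fold and 2.37-fold in libraries 1, 3 and 4. T/NK-like cells had *Psmb8* at 3.01-fold, 2.85-fold and 2.49-fold in libraries 1 to 3 and at 0.54-fold in library 4. The B-like excess was not seen within a library, with *Psmb8* at 1.30-fold in library 3 and 0.51-fold in library 4, *Psmb9* at 1.13-fold and 0.64-fold, and *Psme1* at 1.01-fold in both. Smooth muscle-like cells had *Psmb8* at 0.24-fold, 0.26-fold and 0.18-fold in libraries 1 to 3. Endothelial-like cells had it at 2.08-fold and 1.88-fold in libraries 1 and 2 and 1.07-fold in library 3. No constitutive subunit was 2-fold higher than the other classes in any pooled class, and all 8 genes were 2-fold lower in erythroid-like cells, against 72.8% of genes. *Psmb6* was lower in granulocyte-like cells, at 0.34-fold, against 21.9% of genes. Within library 1 the cardiomyocyte-like cells had *Psmb5* at 2.01-fold and *Psmb7* at 2.03-fold the median of the other classes, and *Psmb6* at 1.68-fold.

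The order of classes by pooled level was led by macrophage-like and dendritic-like cells for each induced gene, with T/NK-like and B-like cells next. For *Psmb8* the macrophage-like and dendritic-like levels, 1618 and 1587 CPM, did not differ beyond counting error. Over the library ranges, 8 of the 10 neighbours in that order overlapped, and 9 of 10 for *Psmb9* and *Psmb10*. The classes were thus ordered mostly within the spread of the libraries. For *Psmb5* the order was led by T/NK-like cells at 343 CPM and macrophage-like cells at 283 CPM, followed by cardiomyocyte-like cells at 252 CPM and dendritic-like cells at 240.1 CPM, which did not differ beyond counting error.

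Endothelial-like, myeloid and T/NK-like cells were each clustered again, again without the listed genes. Among endothelial subclusters measured in libraries 1 to 3, arterial cells had induced shares of 68.8%, 30.4% and 58.2%. Venous or endocardial cells had 55.3%, 17.1% and 42.6%, and lymphatic cells 53.9%, 18.2% and 34.1%. Arterial cells were thus higher than both in each of the 3 libraries. A subcluster led by *Cxcl9*, *Iigp1* and *Ifit1* had 69.4% in library 1 and 58.2% in library 3, where an unnamed subcluster led by *Aplnr* had 67.1% and 57.9%. Capillary cells, named only in library 2, had 35.3% and 30.9% in their 2 subclusters, above the 21.2% of an unnamed subcluster of library 2 led by *Cxcl3* and *Spp1*, genes of myeloid cells.

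Among myeloid cells, mature dendritic cells, which carry *Ccr7* and *Fscn1*, had the highest induced share, 88.2% in library 4 on 54 cells. In the same library the share was 83.7% in nonclassical monocytes, 83.0% in infiltrating monocytes, 82.1% in conventional dendritic cells and 77.3% in cycling cells. Conventional dendritic cells had 74.0% and 75.1% in libraries 1 and 3. Resident macrophages had 57.7% in library 1 and 51.1% in library 3, and another resident subcluster, led by *Cd163*, had 23.5% in library 2. The former had 3 resident markers, *Mrc1*, *Gas6* and *Cx3cr1*. The latter had 6, *Folr2*, *Lyve1*, *Mrc1*, *Cbr2*, *F13a1* and *Cd163*. Only *Mrc1* was common to both, so their shares are not those of 1 cell type across libraries. Within libraries 1 and 3 conventional dendritic cells thus had a larger induced share than resident macrophages, with intervals apart. On the *Psmb10*/*Psmb7* pair the order turned, with 43.3% in conventional dendritic cells and 55.6% in resident macrophages of library 3. In library 1 the values were 56.3% and 63.7%, with overlapping intervals.

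Within the T/NK-like cells of library 4, the induced share differed widely. The subcluster named regulatory T cells, with *Cd4* and *Foxp3* among its leading genes, had 75.0%. Natural killer cells had 69.1%, and the cycling subclusters 59.3% and 69.4%. No subcluster was named as other CD4 T cells, and their part in the 75.0% was not tested. The lowest share, 46.2% on 200 cells, was in an unnamed subcluster led by *Ifng*, *Ccl3* and *Xcl1*. The T/NK-like cells that led in *Ifng* thus had the lowest induced share of the T/NK-like subclusters. Natural killer cells of library 1, in a subcluster of their own, had 66.9%. Gamma-delta T cells had 76.5% on 53 cells of all libraries.

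**Figure D3:**
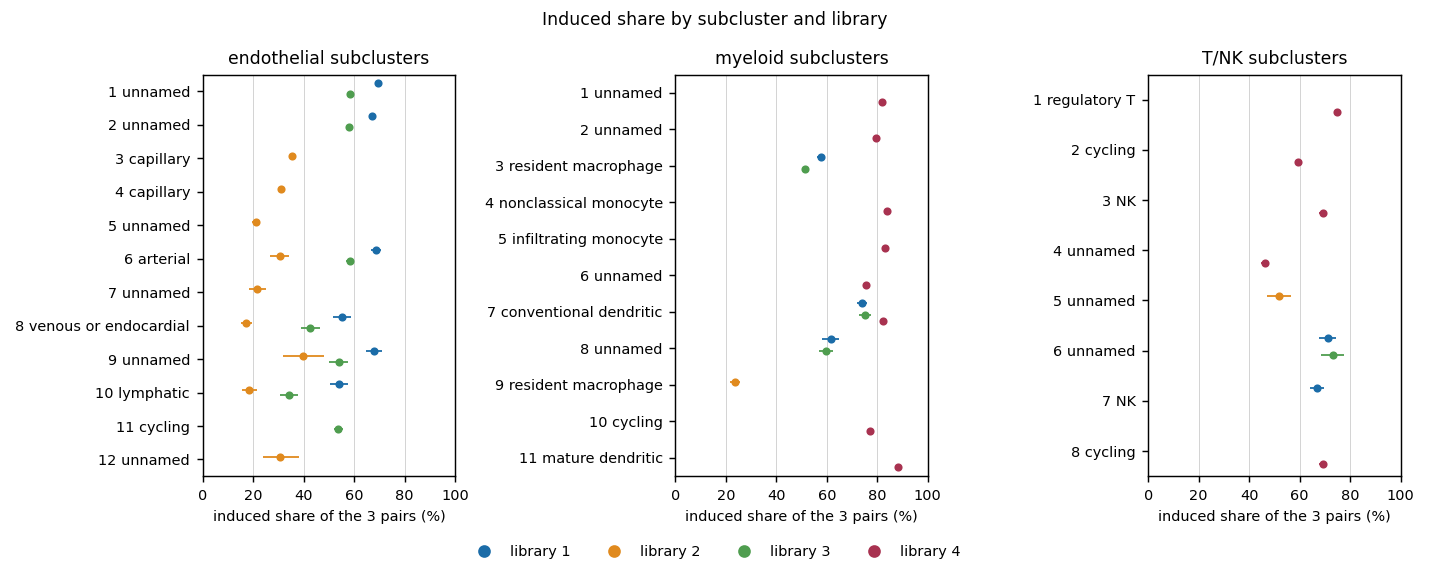
Induced share of the 3 pairs, in percent of UMIs, by subcluster of endothelial-like, myeloid and T/NK-like cells, for libraries with at least 50 cells. Colours are libraries and bars exact Clopper-Pearson 95% intervals. Library 2 lies left of libraries 1 and 3 in the endothelial subclusters they share, and T/NK subcluster 4 lies lowest of its class at 46.2%.

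Cells of each class or unnamed cluster and library, with at least 1000 UMIs each, were also cut into 4 bins of equal number by the share of their UMIs in the interferon gamma list, which holds none of the 8 genes. The bins are ranges of a score and not cell types. In all 24 sets of cells the induced share of the 3 pairs was higher in the highest bin than in the lowest, and it rose at every step in 19. In granulocyte-like cells the intervals of these bins overlapped in library 2 (22.1 to 29.0 and 28.5 to 35.8) and library 3 (31.7 to 48.8 and 45.1 to 59.2). Those of library 2, counted among the 19, had scores of 0% and 0.00019% and shares of 25.5% in both lowest bins. That step does not compare different scores. In macrophage-like cells the induced share went from 42.1% to 72.6% in library 1, from 38.7% to 67.0% in library 3 and from 79.3% to 82.2% in library 4. In fibroblast-like cells it went from 35.0% to 55.5% in library 1, from 6.02% to 10.9% in library 2, from 20.7% to 40.4% in library 3 and from 74.9% to 77.5% in library 4. Smooth muscle-like cells, also low at the start, went from 8.06% to 30.1% in library 3. In endothelial-like cells it went from 19.6% to 43.9% in library 2, and in T/NK-like cells of library 4 from 53.1% to 76.1%.

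By gene, *Psmb8* and *Psmb9* were higher in the highest bin in 24 of 24 sets, *Psme1* in 23, *Psmb10* and *Psme2* in 22, *Psmb6* in 6, *Psmb7* in 5 and *Psmb5* in 3. The share of all genes that were higher in the highest bin was not counted. Over the T/NK-like cells of library 4, the highest bin had *Psmb10* at 1.92 times the level of the lowest and *Psmb5* at 0.54 times. Depth moved with the bins there, with a median of 26070 UMIs per cell in the lowest bin and 5090 in the highest. It rose in some other sets, from 3022 to 11205.5 in pericyte-like cells of library 1 and from 1839 to 9818 in cluster 13. In fibroblast-like cells of library 1 it hardly moved, from 11517 to 11168. The part of depth in these results was not tested. With the score taken from thinned cells, the induced share in the highest bin was again above that in the lowest in all 24 sets.

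**Figure D4:**
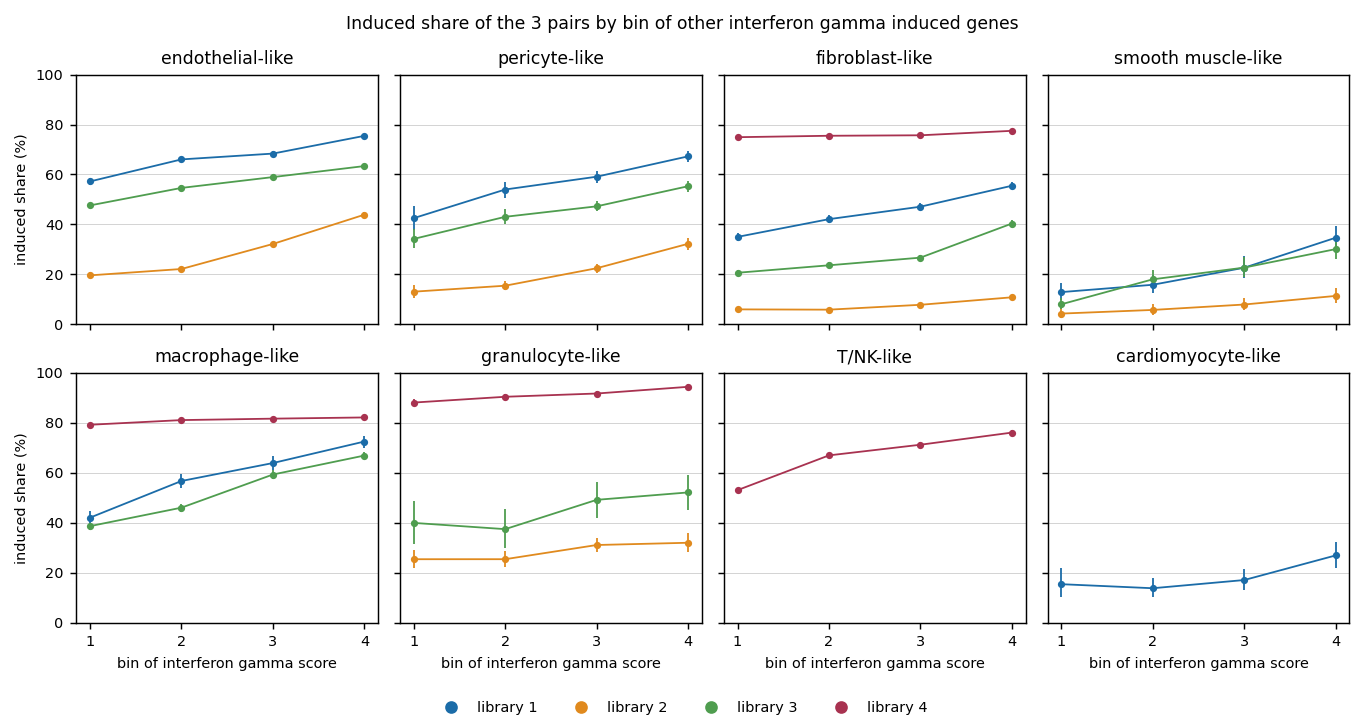
Induced share of the 3 pairs, in percent of UMIs, in 4 bins of cells by their share of UMIs in the interferon gamma list, for 8 named classes (panels) and the libraries (colours). Bars are exact Clopper-Pearson 95% intervals. Each line ends higher in bin 4 than it starts in bin 1, though these intervals overlap in granulocyte-like cells of libraries 2 and 3. The rise is steep in macrophage-like cells of library 1 (42.1% to 72.6%) and small in those of library 4 (79.3% to 82.2%).

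Over the 32 combinations of class and library, the levels of the induced genes, as log2(CPM + 10), went together, with Pearson r from 0.86 to 0.98 between any of them and the highest value for *Psmb8* with *Psmb9*. The 3 constitutive genes had r from 0.94 to 0.95 with each other, and r between an induced and a constitutive gene was 0.21 to 0.60. Without the erythroid-like unit the last range fell to between -0.0039 and 0.43, and the constitutive range to between 0.87 and 0.88. The combinations share libraries, depth and clusters and are not independent. Among 7676 genes, the gene most like *Psmb8* (r = 0.97) and *Psmb9* (r = 0.98) was *Tap1*, which lies between them, and *Sp110*, *H2-K1* and *H2-T23* were also among the closest genes of both. *B2m*, the light chain of class I molecules, was the fifth for *Psmb8*. *Psmb10* was closest to *Ogfr* (0.92), *Tapbpl*, *Tap1* and *H2-T22*. *Psme1* was closest to *Tap1* (0.93), *Ogfr*, *H2-K1*, *Tapbpl* and *Ifi35*, and *Psme2* to *Ogfr* (0.93), *Bak1*, *Ifi35* and *Tap1*. *Tap1* was thus among the closest genes of all 5 induced members. The companions depended on the measure. With Spearman's rho, 4, 4, 3, 3 and 3 of the 5 closest genes of *Psmb8*, *Psmb9*, *Psmb10*, *Psme1* and *Psme2* were kept. With classes pooled over libraries, each kept 1.

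The constitutive subunits had other companions. *Psmb5* was closest to *Psmb3* (0.96), *Psmb4*, *Map2k2*, *Lsm12* and *Psmd13*. *Psmb6* was closest to *Psmc2* (0.95), *Nudc*, *Psmc5*, *Slirp* and *Psmc4*, and *Psmb7* to *Psmd13* (0.96), *Psmb4*, *Tbcb*, *Psma6* and *Psmc4*. Of these 15 places, 10 were taken by genes of the proteasome. Without the erythroid-like unit the *Psmb5* and *Psmb3* correlation was 0.90. These companions depended on the measure too. With Spearman's rho, 2, 0 and 3 of the 5 closest genes of *Psmb5*, *Psmb6* and *Psmb7* were kept. With classes pooled over libraries, 3, 2 and 0 were kept.

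**Figure D5:**
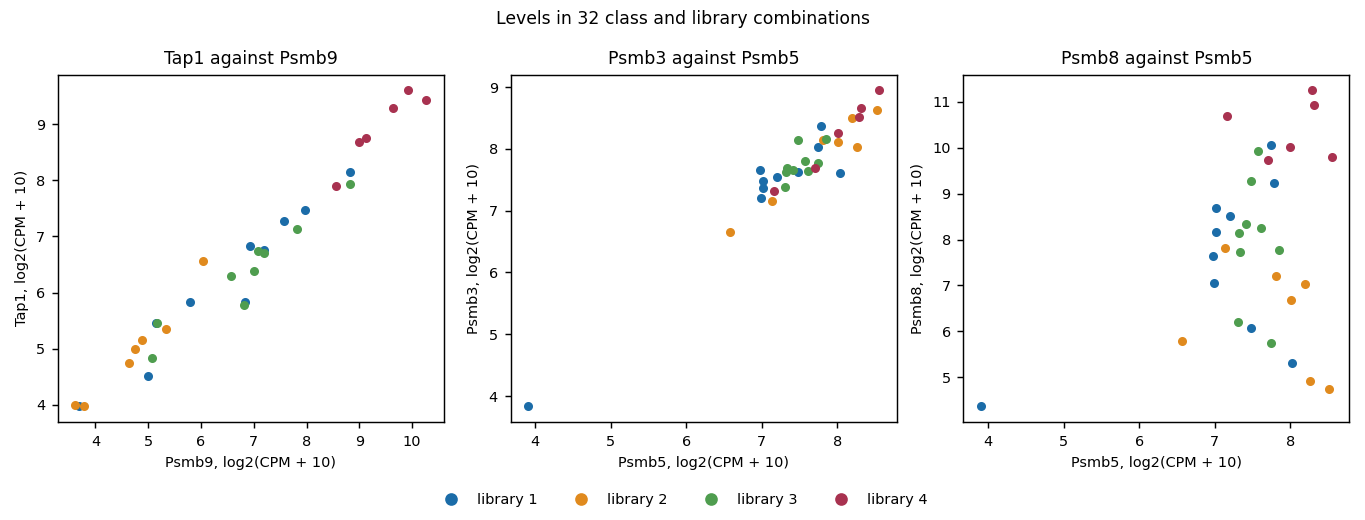
Levels as log2(CPM + 10) in the 32 combinations of class and library, for *Tap1* against *Psmb9*, *Psmb3* against *Psmb5* and *Psmb8* against *Psmb5*. Colours are libraries and each point is a class in a library. *Tap1* follows *Psmb9* along a line (r = 0.98) and *Psmb3* follows *Psmb5* (r = 0.96), while *Psmb8* spreads over a wide range at a like *Psmb5* level.

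Unnamed clusters were also measured. Cluster 13 of library 4 had an induced share of 79.9%, with *Psmb8* at 1547 CPM, *Psmb9* at 639 CPM and *Psme1* at 968 CPM, at a median depth of 1815 UMIs. These values lay between those of macrophage-like and fibroblast-like cells of library 4. Cluster 14, led by *Arg1* and *Ccl24*, had 57.5%, 24.0% and 51.0% in libraries 1 to 3, each within 1 point of the macrophage-like cells of the same library. Cluster 18, led by *Acta1*, *Ankrd1* and *Nppa*, genes of stressed heart muscle, had 27.9%, 18.3% and 33.7% in libraries 1 to 3 and 76.0% in library 4. Its cells had a median depth of 907 UMIs, and cardiomyocyte transcripts made up 15766 CPM of it in library 4 against 33625 to 51114 CPM in the others.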

How the data were processed

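Single-cell 3′ RNA libraries of 2 allogeneic and 2 syngeneic heart grafts were analysed as 1 merged matrix of UMI counts. The authors made these counts with Cell Ranger 3.0.0 (matrix header), and mm10, CASAVA 1.8 and Seurat are named in the submitters' processing notes. The counts were deposited as raw whole numbers with no normalization, for 30905 genes and 53824 barcodes, with 96020294 to 166079145 UMIs per library. Nothing read here ties the 4 barcode suffixes to grafts, so no test between grafts was made and no p-value is given.

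Cells with more than 200 genes and less than 20% mitochondrial UMIs were kept, and in each library the 5% of cells most like simulated doublets were left out. Clusters came from 2000 variable genes, without the 8 genes and the lists of proteasome, class I loading and interferon genes, 10 principal components, a graph of 30 neighbours and the Leiden method at resolution 0.8 (0.5 for subclusters). A cluster was named when at least 3 markers of a list were detected, unless low depth or other leading markers kept it unnamed. Low depth did not always do so. Cluster 13, with 3 endothelial markers and a median of 1824.5 UMIs, stayed unnamed for low depth. Cluster 6, with 5 endothelial markers and a median of 941 UMIs, was named endothelial. Of its 2219 cells, 2206 were in library 2, so the endothelial-like class holds shallow cells of library 2 but not cluster 13. Clusters 14, 17 and 18 stayed unnamed because other markers led. They had 6 macrophage, 6 fibroblast and 10 cardiomyocyte markers. CPM used non-mitochondrial UMIs, folds had 10 CPM added, and a gene was tested at 50 CPM or more in some unit. Intervals (95%) are exact Poisson for levels and exact Clopper-Pearson for shares, and cover counting error only. The limit for a count of 0 is 3 counts.

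The 8 genes were always named, with the highest and lowest gene of a list, *Tap1* and the 5 genes most like each member by Pearson r. Genes that lead clusters, and a few others given beside a result, were named after their values had been seen. Results that need items withheld here are not reported. The members and lists were chosen with earlier results of these data known. Scripts were tested on simulated data. Clustering used leidenalg 0.10.2 with igraph 0.11.9 and scikit-learn 1.9.0, figures matplotlib 3.10.9, intervals scipy 1.17.1, and tables pandas 2.3.3 and numpy 2.4.6 under Python 3.11.15. Alternatives covered the clustering, the filters, doublets, thinning to 1000 UMIs, the weight of libraries, the added CPM and leaving out each library.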

Additional observations from a re-analysis of the deposited data

How the results depend on the processing

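The pooled induced share of a class depends on which libraries hold its cells, and the shares by library were not recomputed under the alternatives. In endothelial-like cells it was 51.2%, and 53.6% at resolution 0.4, 57.4% at resolution 1.6, 57.8% with 20 principal components, 57.9% with all variable genes kept, 53.6% with doublets kept, 43.8% with over 500 genes per cell, 52.9% in thinned cells, 51.6% with libraries weighted equally and 44.3% to 61.9% with a library left out. In fibroblast-like cells it was 46.4%, and 43.4%, 45.6%, 45.2% and 45.9% under the first 4 of these, 45.3% in thinned cells, 39.2% with equal weight and 26.5% to 55.8% with a library left out. In macrophage-like cells it was 79.3%, and 80.1% in thinned cells, 53.7% with equal weight and 50.8% to 80.4% with a library left out. In T/NK-like cells it was 63.2%, and 65.3% with doublets kept, 68.1% in thinned cells and 63.0% to 66.1% with a library left out. The 32 induced genes counted at 2-fold between libraries, over 8 classes, became 20 to 32 with a library left out, the lowest without library 2, and the 10 constitutive ones 4 to 7, with 4 without library 2 and 5 without library 4. Against the mean rather than the median of the other classes, 9 in place of 16 induced genes were 2-fold higher and 23 in place of 9 lower. Of the 40 genes most like a member, 22 were shared under Spearman's rho, 10 with classes pooled over libraries and, as an alternative chosen after seeing the data, 32 without the erythroid-like unit. The highest endothelial subcluster went from 63.8% to 70.5% with all variable genes kept, and the highest myeloid subcluster from 87.1% to 83.0% at resolution 0.3. The induced share was higher in the highest interferon bin in 24 of 24 sets with 2 bins and with thinned scores too. Apart from the changed samples or cells, the cause of these changes was not tested. Leaving out a library dropped its cells without clustering again. No paired analysis was possible because the columns of the matrix carry no graft number.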
